A study of Homo sapiens with 9 samples.

Results

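The EREG viewpoint was 1 of the 20 gene promoters from which chromatin interactions were captured in this series, and it was taken by gene name together with all sequence up to 500 kb from its transcription start site. The cells were MED14-dTAG HCT-116 cells, an engineered derivative of a long-established colorectal cancer line, in which the Mediator subunit MED14 carries a tag that leads to its degradation when dTAG ligand is added. Every group, the control included, carried this tag. There were 9 Capture-C libraries, 3 from cells given dTAG ligand (0.5 μM, 2 h) together with the BET inhibitor I-BET151 (1 μM, 90 min) (dTAG+I-BET), 3 from cells given dTAG ligand alone (0.5 μM, 2 h) (dTAG), and 3 from cells given DMSO. No library was made from cells given I-BET alone, so that its effect could be read only on top of Mediator depletion. The study's methods call the replicates biologically independent, whereas the column names carry the letters TR before each number, whose meaning is not stated, and the p-values given here measure the spread between these libraries.

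EREG encodes epiregulin, a secreted growth factor that binds and activates the EGF receptor and ERBB4. Its gene lies in a cluster with those of related ligands, AREG (amphiregulin), EPGN (epigen) and BTC (betacellulin), beside a group of CXC chemokine genes, and epiregulin and amphiregulin are known as autocrine growth signals in colorectal tumor cells. Mediator is a large complex that passes signals from transcription factors at enhancers to RNA polymerase II at promoters, and cohesin extrudes chromatin loops that CTCF can halt. In Capture-C, crosslinked chromatin is cut with DpnII, which recognizes GATC, neighboring ends are ligated, and ligation products that contain a chosen promoter fragment are pulled out and sequenced.

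EREG (ENSG00000124882.4) runs from 74365145 to 74388749 on the plus strand of chromosome 4 (hg38). Its start site lay 958 bp into a DpnII fragment of 1372 bp, chr4:74364187-74365558, which was taken as the fragment that reports on the promoter. No probe position was used, and the stretch without listed fragments around the start was longer, at 1920 bp (chr4:74364171-74366090). Downstream, in the direction of EREG transcription, lay AREG with its start 79.991 kb away and BTC 429.378 kb away. Upstream lay EPGN at −56.675 kb (distances upstream of the EREG start are negative), MTHFD2L, a mitochondrial enzyme of folate metabolism, at −250.971 kb, and the chemokine genes CXCL2, CXCL3, CXCL5, PPBP, PF4 and CXCL1 between −265.949 and −495.752 kb. The promoters of the 3 ligand genes nearest to each other in this cluster are shown because the contacts described here either start from them or end at them. The sequences are those of RefSeq (GRCh38.p14), plus strand, from 250 bases before to 50 bases after each start, with TATAAA and the DpnII site GATC in capitals.
EREG chr4:74364895-74365194: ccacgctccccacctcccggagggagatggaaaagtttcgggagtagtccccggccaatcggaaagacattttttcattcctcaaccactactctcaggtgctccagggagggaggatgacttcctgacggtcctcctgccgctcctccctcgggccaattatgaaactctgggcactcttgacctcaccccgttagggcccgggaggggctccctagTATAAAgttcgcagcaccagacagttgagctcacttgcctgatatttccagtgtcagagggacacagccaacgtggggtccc
AREG chr4:74444886-74445185: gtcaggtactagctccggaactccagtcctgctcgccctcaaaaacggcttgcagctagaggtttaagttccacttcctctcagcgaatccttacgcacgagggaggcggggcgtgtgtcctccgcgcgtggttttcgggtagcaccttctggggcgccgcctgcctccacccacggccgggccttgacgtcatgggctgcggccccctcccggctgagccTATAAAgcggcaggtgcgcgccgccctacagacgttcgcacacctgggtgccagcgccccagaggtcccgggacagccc
EPGN chr4:74308220-74308519: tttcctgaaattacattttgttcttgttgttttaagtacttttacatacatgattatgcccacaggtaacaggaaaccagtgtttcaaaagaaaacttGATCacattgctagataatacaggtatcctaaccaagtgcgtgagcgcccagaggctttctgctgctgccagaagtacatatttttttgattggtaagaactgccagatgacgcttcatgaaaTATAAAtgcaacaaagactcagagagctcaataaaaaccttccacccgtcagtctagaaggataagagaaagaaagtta
TATAAA began 32 bases before the start in EREG and 29 bases before it in AREG and in EPGN, and no match was in the BTC promoter. Searched on both strands, it was in 11.5% of 35116 promoters of the same length. The GC box letters GGGCGG, in 45.0% of promoters, had 1 match in AREG, 1 in BTC and 0 in EREG and EPGN. The AP-1-like letters TGANTCA, where N is any base (7.71% of promoters), and the E-box CACGTG (7.26%) had 0 matches in all 4 ligand promoters. GATC, in 41.7% of promoters, was in that of EPGN only.

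The contacts of EREG were measured above all at cohesin-lost sites, positions at which SMC1A, a subunit of cohesin, lost CUT&Tag signal in dTAG-treated cells in another assay of the study. Only their positions were used, and since they were picked in the same cell line and treatment by another assay, they are not an independent choice of regions. Of 881 such sites, 10 lay within 500 kb of the EREG start. The first covered the EREG promoter itself and was left out, because signal within 10 kb of a viewpoint decays steeply. All 9 others lay downstream, and none lay on the chemokine side. There was 1 inside AREG (81.37 kb from the EREG start), 1 just past the end of AREG (90.983 kb), 1 at 175.101 kb, and 6 in a distal cluster from 243.831 to 300.059 kb, a stretch between AREG and BTC that holds no annotated gene. The central 300 bases of 3 sites (hg38, plus strand) are shown, 1 beside AREG and 2 at the near and far parts of the distal cluster. The AP-1-like letters TGANTCA, where N is any base, are in capitals.
Site at 91.2 kb, chr4:74456179-74456478: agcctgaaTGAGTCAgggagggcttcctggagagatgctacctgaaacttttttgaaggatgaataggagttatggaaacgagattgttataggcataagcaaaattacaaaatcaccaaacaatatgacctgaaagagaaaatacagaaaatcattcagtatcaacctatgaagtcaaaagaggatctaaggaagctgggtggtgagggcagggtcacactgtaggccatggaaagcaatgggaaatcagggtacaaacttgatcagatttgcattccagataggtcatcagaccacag
Site at 253.7 kb, chr4:74618647-74618946: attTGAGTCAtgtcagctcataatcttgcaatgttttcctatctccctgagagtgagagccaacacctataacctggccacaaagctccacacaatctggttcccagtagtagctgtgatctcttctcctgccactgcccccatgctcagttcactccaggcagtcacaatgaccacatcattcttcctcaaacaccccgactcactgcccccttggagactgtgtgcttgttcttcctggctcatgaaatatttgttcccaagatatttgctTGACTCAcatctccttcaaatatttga
Site at 300.3 kb, chr4:74665255-74665554: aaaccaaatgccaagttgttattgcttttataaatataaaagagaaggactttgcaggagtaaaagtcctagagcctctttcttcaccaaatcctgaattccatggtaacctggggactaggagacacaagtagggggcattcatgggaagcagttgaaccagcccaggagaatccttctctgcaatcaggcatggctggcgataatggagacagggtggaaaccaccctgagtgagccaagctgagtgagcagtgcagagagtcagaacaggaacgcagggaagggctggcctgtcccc
On both strands, TGANTCA was found in the central 300 bases of 5 of the 10 sites, against 10.1% of the 3333 tiles of 300 bases that make up the region within 500 kb of EREG. The TEAD letters GGAATG were in 3 of 10 sites (16.3% of tiles), the GATA letters AGATAA in 1 (26.4%), and the ETS core GGAA in 9 (93.2%). The TCF/LEF letters CTTTGA (21.1%) and the FOX letters TGTTTAC (5.67%) were in 0 of 10. GGAATG contains GGAA, so that these letters overlap. The site inside AREG matched TGANTCA as TGATTCA only. A match describes the sequence and is not a binding event.

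Each EREG library held 18514 to 33315 interactions with chromosome 4 (median 21821), against 10698 to 60241 per library over all viewpoints (median 28938.5), and the EREG median lay below that of all viewpoints. Interactions with other chromosomes made up 33.5% to 40.7%. The share of the chromosome 4 interactions that fell within 500 kb of EREG was 58.9%, 58.9% and 60.3% in dTAG+I-BET replicates 1 to 3, 59.9%, 60.2% and 45.3% in dTAG replicates 1 to 3, and 54.4%, 54.8% and 53.1% in DMSO replicates 1 to 3. dTAG replicate 3 stood apart from every other library in this share (95% Wilson interval 44.6% to 45.9%, which covers counting error only), and it had the highest share of interactions with other chromosomes. Its EREG signal was 0.59 below the DMSO mean on the log2 scale from 10 to 50 kb and 0.35 above it from 1 to 5 Mb. At the other 19 viewpoints the same library averaged 0.48 below and 0.48 above in these bands, so that the pattern was not particular to EREG. Results that move without this library are therefore also given without it, and the windows and their sum were also fitted after each library was rescaled to the same total from 10 to 1000 kb. DMSO replicate 3 leaned the same way to a lesser degree, averaging 0.12 below and 0.24 above in these bands at the other 19 viewpoints. It stays in the DMSO group where dTAG replicate 3 alone is left out. Log2 signal of EREG bins correlated with a Pearson r of 0.952 to 0.982 within groups (9 pairs, across bins, which are not independent) and 0.954 to 0.979 between groups (27 pairs). Over the bins of all viewpoints, no pair of replicates agreed within sampling noise (highest chi-square p, 4.38e-21). Over the EREG bins alone, dTAG+I-BET replicates 1 and 3 did (chi-square p = 0.336). The other pairs within groups had a chi-square p of 0.0102 or lower there.

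In DMSO-treated cells the contacts of EREG were lopsided. In a description that ranks 10-kb bins against the median of the other 19 viewpoints at the same distance and side, 43 of 49 downstream bins lay above that median, against 6 of 49 upstream bins. The 5 bins that stood highest above it all lay in or just beyond the distal cluster. The bin from 300 to 310 kb had a mean signal per kb of 1718 in dTAG+I-BET, 1734 in dTAG and 1304 in DMSO, and the DMSO mean was 6.50 times the median of the other viewpoints. The bins from 280 to 290, 260 to 270, 290 to 300 and 240 to 250 kb followed, at 5.37, 5.32, 5.17 and 3.50 times the median in DMSO. Signal per kb is the deposited signal, the number of interactions of a DpnII fragment which the authors had scaled so that libraries have nearly equal totals, summed over a region and divided by its length.

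Beyond 330 kb the signal dropped before BTC was reached. The mean signal from 280 to 330 kb was 3.49, 3.83 and 3.61 times that from 330 to 380 kb in dTAG+I-BET replicates 1 to 3, 4.40, 3.54 and 3.81 times in dTAG replicates 1 to 3, and 3.03, 3.20 and 3.58 times in DMSO replicates 1 to 3. The drop was present in all 9 libraries, and the ranges of the 3 groups overlapped. These limits were chosen after the profile had been seen, and no test was made.

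**Figure D1:**
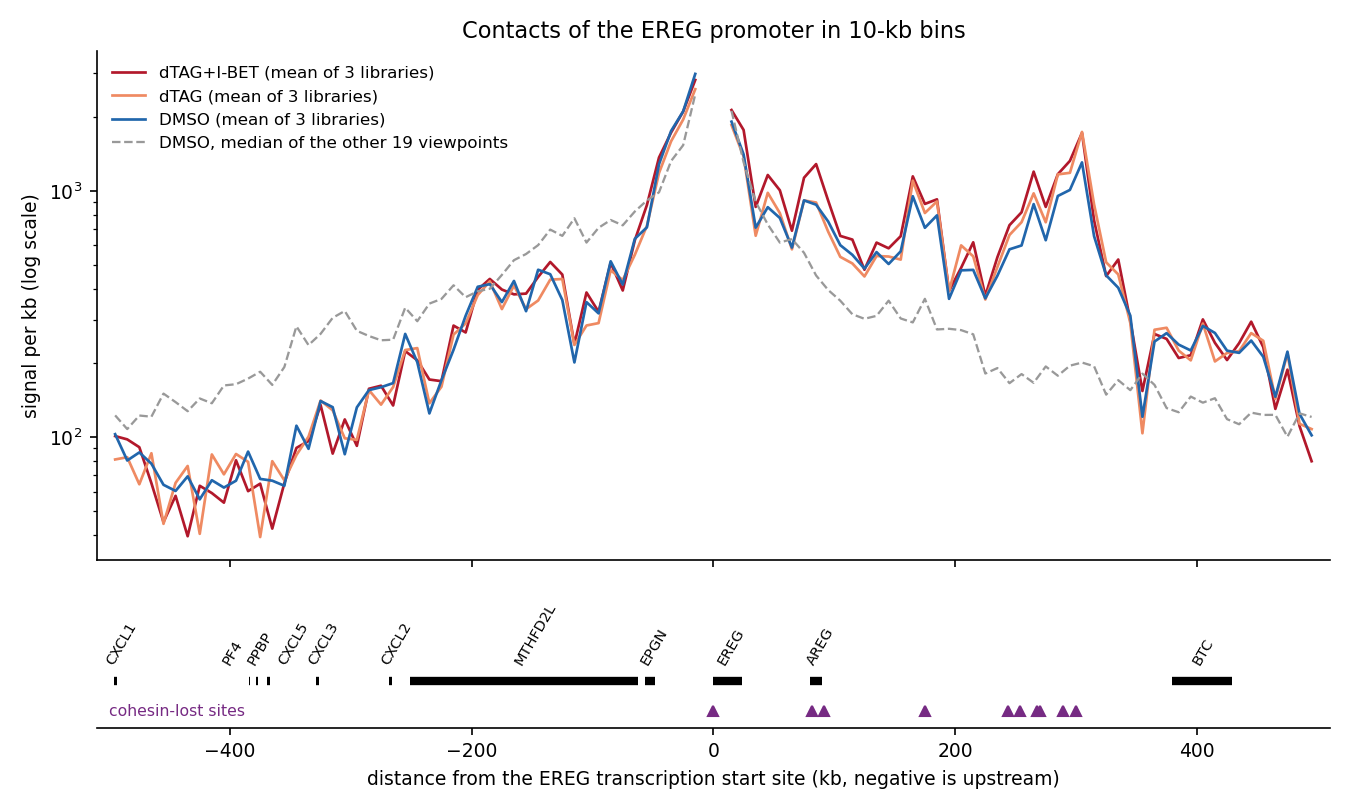
Signal per kb with the EREG promoter in 10-kb bins on a log axis against distance from the EREG start site (kb, negative upstream), as group means of 3 libraries, with the DMSO median of the other 19 viewpoints (dashed) and, underneath, protein-coding genes and cohesin-lost sites (triangles). The downstream side carries a broad rise that ends near 330 kb, with its highest bin from 300 to 310 kb at 1718 in dTAG+I-BET, 1734 in dTAG and 1304 in DMSO.

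A single fragment of 2015 bp, chr4:74535348-74537362, 171.21 kb downstream of EREG and inside the window of the cohesin-lost site at 175 kb, had the highest total signal, not divided by its length, of any fragment more than 50 kb away. Its total was 2117, 2393 and 2522 in dTAG+I-BET, 2022, 1440.5 and 1494 in dTAG, and 1599, 1672 and 1544 in DMSO. All dTAG+I-BET libraries lay above all others, while dTAG and DMSO overlapped. The values rest on 155, 123 and 128 interactions in the 3 groups, and the fragment was picked for this total, so that no test was made.

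A CTCF-like core (CCA, any 2 bases, AG, any 2 bases, GGC) was searched on both strands, since CTCF sites often stand at the ends of interaction domains. It had 13 matches from 10 to 500 kb from EREG, 5 downstream and 8 upstream, in 12 of 98 bins (12.2%), against 21.7% of the bins of all viewpoints. There was 0 in the cohesin-lost windows and 0 between 240 and 340 kb. The downstream matches lay at 11.9, 14.7, 129.1, 224.6 and 348.2 kb, and the last of these lies just past the drop in signal. Those at 224.6 and 348.2 kb, on either side of the distal cluster, are shown with 9 bases on each side (hg38, on the strand of the match) and the core in capitals.
Match at 224.6 kb, minus strand, chr4:74589789-74589800: tacatgggaCCAGCAGTAGGCaaacaaaat
Match at 348.2 kb, plus strand, chr4:74713352-74713363: gaggggcacCCACCAGATGGCagctggacc
The match at 224.6 kb pointed towards EREG and that at 348.2 kb pointed away from it. CTCF occupancy was not measured in these files.

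At the cohesin-lost windows, EREG had more contacts in dTAG+I-BET than in DMSO. The 9 sites, with 5 kb added on each side and merged, made 6 windows, and each held 169 to 685 interactions per library. The window around the 2 sites at AREG (chr4:74441515-74461528) had 1247, 1151 and 1286 signal per kb in dTAG+I-BET, 909, 1006 and 712 in dTAG, and 871, 939 and 809.8 in DMSO. Every dTAG+I-BET library lay above every dTAG and DMSO library, and the last 2 groups overlapped. The window at the far end of the distal cluster (300 kb, chr4:74660204-74670604) had 1535, 1576 and 1491 in dTAG+I-BET, 1595, 1467 and 1239.6 in dTAG, and 1014, 1153 and 1133 in DMSO. Here dTAG+I-BET and dTAG overlapped, and both lay above all DMSO libraries. These 2 windows thus ordered the groups differently.

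The 3 other windows of the distal cluster lay between these patterns. At 249 kb the signal per kb was 799.8, 742 and 707 in dTAG+I-BET, 702, 768 and 621 in dTAG, and 586, 593 and 552 in DMSO. At 269 kb it was 992, 989 and 967 in dTAG+I-BET, 894, 924 and 698 in dTAG, and 764, 798 and 594 in DMSO. At 289 kb it was 1332, 1298 and 1356 in dTAG+I-BET, 1450.3, 1295 and 878 in dTAG, and 1047, 1017 and 1047 in DMSO. In all 3, dTAG replicates 1 and 2 lay above every DMSO library, and dTAG replicate 3 was the lowest dTAG library and lay among or below the DMSO libraries at 269 and 289 kb. At 269 kb dTAG+I-BET lay above every dTAG library, as at AREG, and at 249 and 289 kb these groups overlapped. The window at 175 kb, which holds the fragment described above, had 899, 985 and 885 in dTAG+I-BET, 892, 859 and 792 in dTAG, and 812, 734 and 672 in DMSO, and its dTAG values overlapped both other groups.

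**Figure D2:**
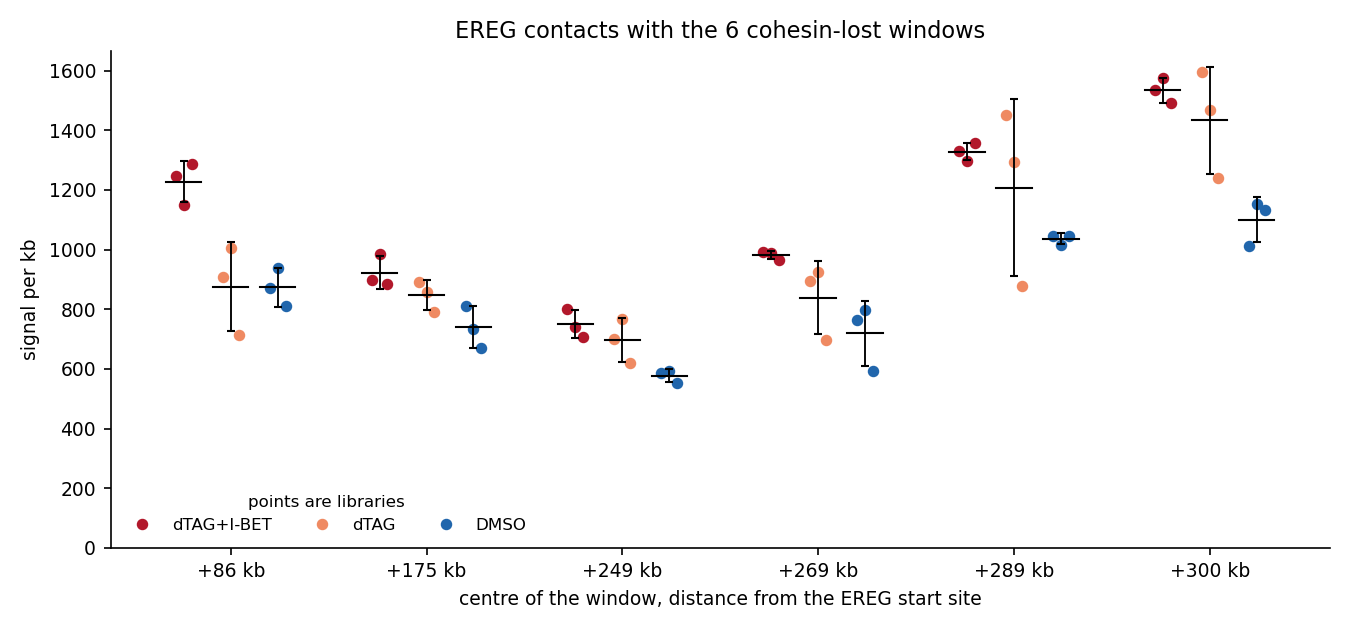
Signal per kb with the EREG promoter in each of the 6 cohesin-lost windows, named by the distance of their centers from EREG (kb), with a point for each library, a horizontal bar at the group mean and error bars of 1 SD (n = 3). In every window the 3 dTAG+I-BET points lie above the 3 DMSO points, and only at AREG (86 kb) and 269 kb do they also lie above all dTAG points.

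With dTAG+I-BET against DMSO, 2 of the 6 windows rose in limma with Benjamini-Hochberg adjustment over the 113 windows of all viewpoints, against a background of 2.65% of windows called higher. These were the AREG window (log2 ratio 0.49, SE 0.15, adjusted p = 0.0386) and the window at 300 kb (0.48, SE 0.13, adjusted p = 0.0299). The other 4 had log2 ratios of 0.32 to 0.46 and adjusted p-values of 0.0586 to 0.156, and at an unadjusted p under 0.05 there were 6 of 6 (31% of all windows). In all 6, the 3 dTAG+I-BET libraries lay above the 3 DMSO libraries, which was so in 9.73% of the windows of all viewpoints, while the reverse was so in 31.9%. The median log2 ratio of the 6 was 0.42, against −0.15 over all 113. When sites up to 50 kb apart were joined into 3 clusters, the AREG cluster (log2 ratio 0.49, adjusted p = 0.0356) and the distal cluster (0.40, SE 0.13, adjusted p = 0.0472) rose in limma, against 7.14% of clusters called higher, and the middle one had 0.32 (adjusted p = 0.0574). The AREG and middle clusters are the same intervals, with the same values, as the windows at AREG and 175 kb. Only the distal cluster joins several windows. Of the 2 cluster calls, 0 were left without any of the dTAG+I-BET replicates, DMSO replicate 1 or DMSO replicate 3. There was 1 left without dTAG replicate 2 or DMSO replicate 2. The window calls also depended on single libraries. All 6 windows were called higher without dTAG replicate 3 (AREG, adjusted p = 0.00363), against 7.96% of all windows under that setting. That library is in neither group compared here. Leaving it out did not change the log2 ratios (0.49 at AREG), only the estimate of spread that the 3 groups share. All 6 were also called higher by edgeR, against 10.6%. The size factors of edgeR came from the windows themselves, so that its ratios are relative to the bulk of the windows. With rescaled libraries 3 were called, at AREG, 269 kb and 300 kb, against 4.42%. There were 0 calls without any of the dTAG+I-BET replicates, DMSO replicate 1 or DMSO replicate 2, and there was 1 without DMSO replicate 3, and the adjusted p of the AREG window ranged from 1.05e-06 to 0.137 over all alternatives.

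With dTAG against DMSO, 0 of the 6 windows passed in limma, against 8.85% of windows called, all of those lower, at all viewpoints. At an unadjusted p under 0.05 there was 1 (23% of all windows), and edgeR called 5 higher (7.08% of all windows). The edgeR ratios are relative to the bulk of the windows, whose median in limma was −0.19. Of the 3 clusters, 0 passed in limma, against 14.3% of all clusters, and edgeR called 2 higher (12.5% of all clusters). The window at 300 kb had the largest log2 ratio (0.38, SE 0.13, adjusted p = 0.0978) and that at AREG the smallest (−0.01, SE 0.15, adjusted p = 0.975), and the other 4 had 0.19 to 0.27. The dTAG and DMSO libraries did not overlap, with dTAG above, in the windows at 249 and 300 kb, 2 of 6 against 3.54% of all windows. Without dTAG replicate 3, the windows at 249, 289 and 300 kb were called higher (log2 ratios 0.35, 0.40 and 0.48, adjusted p = 0.0478, 0.0282 and 0.0167), against 4.42% of all windows, and the AREG window had 0.13 (adjusted p = 0.484). The median of the 6 was 0.21 with this library and 0.35 without it, against −0.19 and −0.03 over all windows.

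With dTAG+I-BET against dTAG, the AREG window had the largest log2 ratio (0.50, SE 0.15), but its adjusted p was 0.421 in limma, and 0 of the 6 windows and 0% of all 113 were called. At an unadjusted p under 0.05 there was 1, the AREG window (6.19% of all windows), and edgeR called the same window (adjusted p = 0.000477; 2.65% of all windows called higher). Leaving out dTAG replicate 3 gave it a log2 ratio of 0.36 (adjusted p = 0.277 in limma). The dTAG+I-BET libraries lay above the dTAG libraries in the AREG window and at 269 kb, 2 of 6 against 7.96% of all windows. Of the 3 clusters, 0 passed in limma, against 0% of all clusters, and edgeR called that at AREG (adjusted p = 0.00273; 1.79% of all clusters called higher). The other 5 windows had log2 ratios of 0.10 to 0.24 (adjusted p = 0.923), and without dTAG replicate 3 these were −0.04 to 0.11. The 3 comparisons share their libraries in pairs, and whether the AREG window differed from the distal ones in its response was not tested.

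Summed over all 6 windows, the signal per kb of EREG was 1104, 1078 and 1083 in dTAG+I-BET, 1006, 1011 and 783 in dTAG, and 819, 846 and 767 in DMSO. The means were 1089 ± 13.7 in dTAG+I-BET, 934 ± 130.0 in dTAG and 810.3 ± 40.2 in DMSO (SD, n = 3 each). dTAG+I-BET lay above both other groups in every library, and dTAG replicate 3 lay among the DMSO libraries. In a limma fit over the 19 viewpoints with such sites, dTAG+I-BET against DMSO gave a log2 ratio of 0.43 (SE 0.11, adjusted p = 0.0388), the only called viewpoint (5.26%), and EREG ranked highest of 19, ahead of DCBLD2 (0.29). The median of the other viewpoints was −0.15 and the lowest was KRR1 (−0.37). The call was lost without dTAG+I-BET replicate 1, 2 or 3 (adjusted p = 0.192, 0.146 and 0.126) and without DMSO replicate 1 or 3 (0.125 and 0.0565), with log2 ratios of 0.39 to 0.43. Without dTAG replicate 3, and likewise with rescaled libraries, its adjusted p was 0.00024, the log2 ratio being 0.43 and 0.31. Under these settings 10 and 12 of the 19 viewpoints were called, 3 and 1 of them higher. Since dTAG replicate 3 is in neither group, leaving it out changed the estimate of spread and not the ratio.

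With dTAG against DMSO the summed log2 ratio of EREG was 0.20 (SE 0.11, adjusted p = 0.288 in limma), again the highest of 19, above KITLG (0.13), with a median of −0.18 over the others and −0.44 at MTAP, the lowest. Of the 19 viewpoints, 0% passed, 4 had an unadjusted p under 0.05, and EREG was not among them. For EREG, edgeR gave 0.38 (adjusted p = 0.000125), the 1 viewpoint that it called. Its size factors came from the 19 sums themselves, so that this ratio is relative to the bulk of them, which was lower. Without dTAG replicate 3 the limma ratio of EREG was 0.32 (adjusted p = 0.00624), and with rescaled libraries 0.19 (adjusted p = 0.00548). Under these settings 3 and 6 of the 19 viewpoints were called, and EREG was the 1 called higher in each. Without DMSO replicate 3 the EREG ratio was 0.16 (adjusted p = 0.373 in limma). With dTAG+I-BET against dTAG, EREG had 0.23 (SE 0.11, adjusted p = 0.572), the second of 19 after DCBLD2 (0.38), and 0.11 without dTAG replicate 3 (adjusted p = 0.266).

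**Figure D3:**
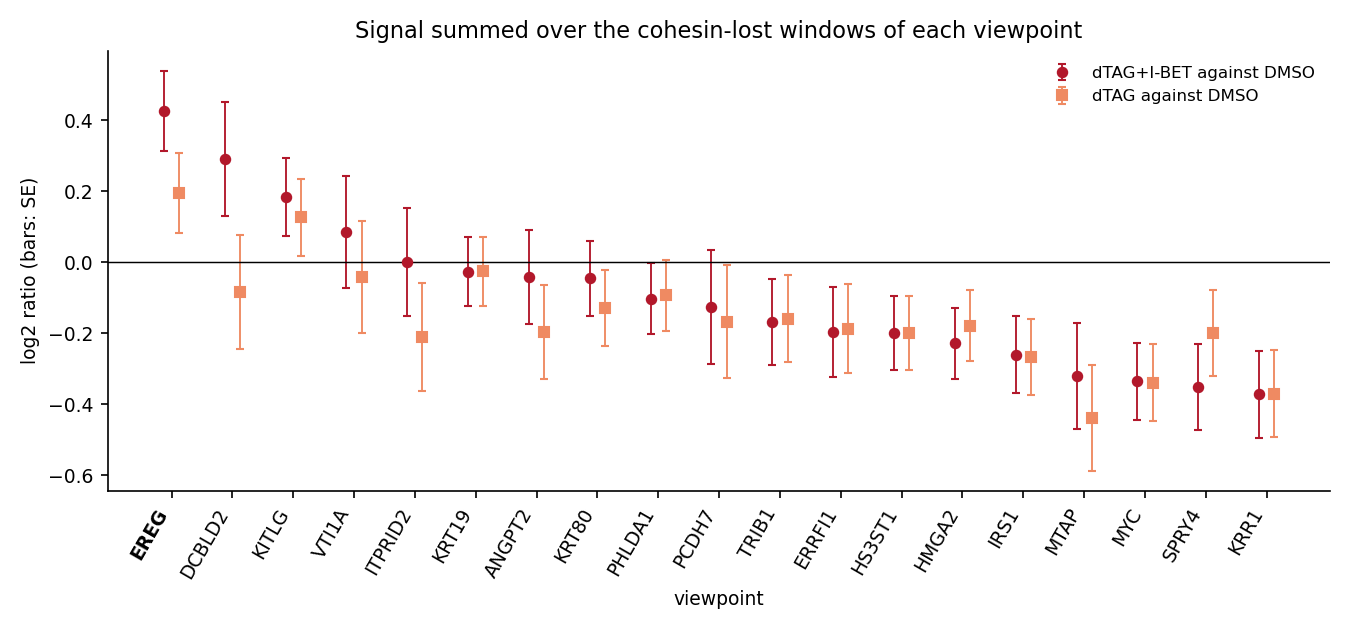
Log2 ratio of the summed signal in cohesin-lost windows at each of the 19 viewpoints that have such sites, with dTAG+I-BET against DMSO (circles) and dTAG against DMSO (squares), ordered by the circles, with EREG in bold and bars of 1 standard error from limma. EREG stands highest in both, at 0.43 with dTAG+I-BET and 0.20 with dTAG.

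The same windows were also set against 2 references within each library, of which only the first does not rest on the total signal near EREG. Relative to all other EREG sequence from 10 to 500 kb, their log2 signal was 1.25, 1.21 and 1.20 in dTAG+I-BET, 1.09, 1.08 and 1.22 in dTAG, and 0.92, 0.93 and 0.86 in DMSO. Both treated groups lay above DMSO in every library. This first reference does not remove a shift of signal with distance, such as that of dTAG replicate 3, which had the highest dTAG value. Against the DMSO mean, the EREG signal of that library was −0.59 from 10 to 50 kb and −0.13 from 250 to 500 kb (log2). dTAG+I-BET exceeded DMSO by 0.32 and dTAG exceeded DMSO by 0.22 (exact permutation p = 0.1 each, two-sided, the smallest that 3 against 3 libraries allow), and dTAG+I-BET exceeded dTAG by 0.09 (exact p = 0.3). Relative to the mean of the cohesin-lost windows of the other viewpoints, the values were 0.66, 0.61 and 0.57 in dTAG+I-BET, 0.42, 0.49 and 0.39 in dTAG, and −0.01, 0.11 and 0.08 in DMSO. All 3 groups were separate on this scale, and dTAG replicate 3 lay with its group. This scale moves with the total signal of EREG and with changes at the other viewpoints. The summed windows of the others had median log2 ratios of −0.15 with dTAG+I-BET and −0.18 with dTAG against DMSO. dTAG+I-BET exceeded DMSO by 0.55 and dTAG by 0.18, and dTAG exceeded DMSO by 0.37 (exact permutation p = 0.1 each). Without dTAG replicate 3, the differences of dTAG against DMSO were 0.18 and 0.39 on the 2 scales, and those of dTAG+I-BET against dTAG were 0.14 and 0.16 (exact p = 0.2, the smallest possible with 2 libraries in a group).

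Among the EGF receptor ligand genes, the promoter of AREG, whose product shares its receptor with epiregulin, was contacted most. In a window of 5 kb on each side of its start, which overlaps the AREG cohesin-lost window, EREG had 1279, 1287 and 1308 signal per kb in dTAG+I-BET, 943, 1108 and 726 in dTAG, and 964, 968 and 768 in DMSO. The dTAG+I-BET libraries lay above all others and close together. The log2 ratio of dTAG+I-BET against DMSO was 0.53 (SE 0.19), which did not pass in limma over the 174 promoter windows of all viewpoints (adjusted p = 0.24) and passed in edgeR (0.51, adjusted p = 0.00811). That of dTAG+I-BET against dTAG was 0.50 (adjusted p = 0.569; 0.34 without dTAG replicate 3), and that of dTAG against DMSO was 0.03 (adjusted p = 0.968; 0.19 without it).

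At EPGN, the nearest ligand gene on the upstream side, the signal per kb was 816, 795 and 789 in dTAG+I-BET, 684, 641 and 469.6 in dTAG, and 724, 700.3 and 569 in DMSO. Again dTAG+I-BET lay above every other library, and dTAG overlapped DMSO. The log2 ratios were 0.28 against DMSO (adjusted p = 0.505) and 0.44 against dTAG (adjusted p = 0.684; 0.27 without dTAG replicate 3), and −0.16 for dTAG against DMSO (adjusted p = 0.751; 0.00 without it). BTC, beyond the drop in signal, had 146, 144 and 168 in dTAG+I-BET, 176, 197 and 93.9 in dTAG, and 159.9, 193 and 154 in DMSO. The 3 groups overlapped at BTC (log2 ratio −0.14 for dTAG+I-BET against DMSO, adjusted p = 0.807).

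Of the 3 ligand genes, 2 had a ratio above 0 with dTAG+I-BET against DMSO (median log2 ratio 0.28, against 0.00 over all 174 windows, of which 50% were above 0), 3 with dTAG+I-BET against dTAG (0.44, against 0.06 and 60.9%), and 1 with dTAG against DMSO (−0.16, against −0.04 and 41.4%). In limma, 0 of the 11 promoter windows around EREG (1 of them that of an unnamed gene with the same start as PPBP) were called in any comparison, against 0.575% with dTAG+I-BET against DMSO, 0.575% with dTAG+I-BET against dTAG and 1.15% with dTAG against DMSO. At an unadjusted p under 0.05 there were 3, 3 and 0 in this order (13.2%, 6.32% and 13.8% of all windows), and edgeR called 1, 0 and 0, the 1 being AREG (5.17% of all windows called higher in that comparison). AREG and EPGN were the 2 of 11 windows in which dTAG+I-BET lay above every DMSO library (11.5% of all windows) and also above every dTAG library (7.47%).

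**Figure D4:**
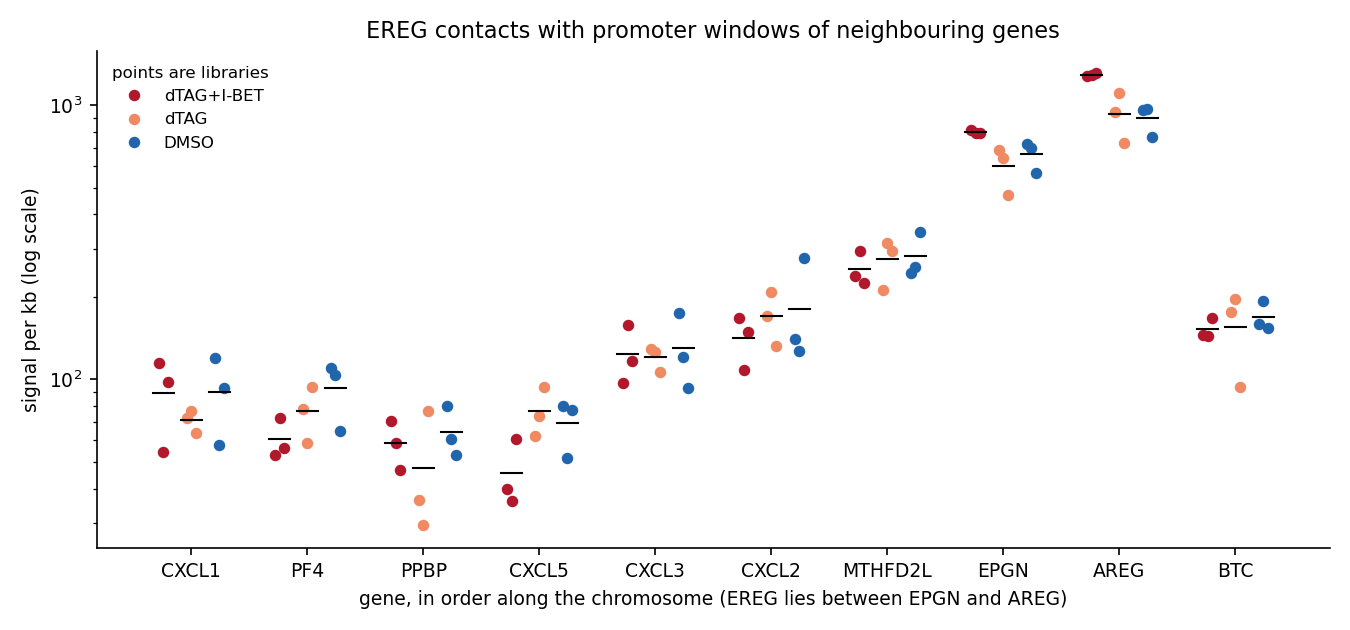
Signal per kb with the EREG promoter in windows of 5 kb on each side of the start of the 10 named protein-coding genes from 10 to 500 kb away, on a log axis, with a point for each library and a bar at the group mean (n = 3). AREG and EPGN have their 3 dTAG+I-BET points above all others, at 1279 to 1308 and 789 to 816, and the chemokine promoters lie between 29.4 and 276.

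The CXC chemokine promoters, which drive attractants of neutrophils (CXCL1, CXCL2, CXCL3, CXCL5) and platelet proteins (PF4, PPBP), had few contacts with EREG. Their windows held 7 to 71 interactions per library, and their group means ranged from 45.5 to 142 in dTAG+I-BET, from 47.5 to 171 in dTAG and from 64.4 to 181 in DMSO. The window with the lowest mean in dTAG+I-BET, CXCL5, had 39.7, 36.1 and 60.7 in dTAG+I-BET, 62.2, 73.5 and 93.9 in dTAG, and 79.9, 51.9 and 77.2 in DMSO, so that dTAG+I-BET lay below every dTAG library, as in 4.6% of all windows. Its log2 ratio was −0.75 against dTAG (SE 0.25, adjusted p = 0.338 in limma; −0.60 without dTAG replicate 3) and −0.61 against DMSO (SE 0.25, adjusted p = 0.287). PF4 gave −0.59 with dTAG+I-BET against DMSO (SE 0.24, adjusted p = 0.303), with overlapping groups. All 6 chemokine windows had a ratio below 0 with dTAG+I-BET against DMSO (median −0.21), 3 of 6 with dTAG+I-BET against dTAG (−0.13) and 5 of 6 with dTAG against DMSO (−0.16). Of all 174 promoter windows, 50%, 60.9% and 41.4% were above 0 in this order. In limma and edgeR 0 of 6 were called in any comparison, with 2, 1 and 0 at an unadjusted p under 0.05 in limma (13.2%, 6.32% and 13.8% of all windows). The windows of PF4 and PPBP overlap, so that the 6 chemokine windows are not 6 separate measurements. With dTAG+I-BET against DMSO, CXCL1 turned to 0.036 in edgeR with TMM, and windows of 2.5 kb on each side gave 0.22 at PPBP and 0.032 at CXCL3. MTHFD2L, the remaining gene, had 238, 293 and 224 in dTAG+I-BET, 213, 315 and 295 in dTAG, and 245, 257 and 345 in DMSO, and its groups overlapped.

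In 10-kb bins, 0 of the 98 EREG bins were called in limma in any comparison, against 4.9% of 1960 bins with dTAG+I-BET against DMSO, 0% with dTAG+I-BET against dTAG and 1.58% with dTAG against DMSO. At an unadjusted p under 0.05 there were 12, 9 and 3 EREG bins in this order (15.8%, 6.22% and 13.3% of all bins), and edgeR called 7, 0 and 3, all higher (5.71%, 0% and 3.93% of all bins called higher). The bin from 80 to 90 kb, which holds most of AREG, had the lowest p with dTAG+I-BET against DMSO. Its signal per kb was 1195, 1278 and 1378 in dTAG+I-BET, 918, 1049.5 and 722 in dTAG, and 894, 959.8 and 779.9 in DMSO. dTAG+I-BET was above all other libraries (log2 ratio 0.55 against DMSO, SE 0.16, adjusted p = 0.0604, and 0.53 against dTAG, adjusted p = 0.712). Without dTAG replicate 3 the adjusted p against DMSO was 0.0013 in limma. That library is in neither group, so the ratio against DMSO did not change. The next were the bins from 250 to 260 kb (0.45) and 270 to 280 kb (0.45) in the distal cluster (adjusted p = 0.118 each). The 3 lower bins with the lowest p lay on the chemokine side, from 440 to 430, 320 to 310 and 390 to 380 kb upstream (−0.85, −0.64 and −0.52, adjusted p = 0.176 to 0.361).

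With dTAG against DMSO, the higher bins with the lowest p were those from 310 to 320 kb (log2 ratio 0.43, adjusted p = 0.243), 300 to 310 kb (0.40, adjusted p = 0.253) and 200 to 210 kb (0.33, adjusted p = 0.382). The bin from 300 to 310 kb had 1918, 1896 and 1388 signal per kb in dTAG and 1184, 1404 and 1324 in DMSO. dTAG replicates 1 and 2 lay above every DMSO library and replicate 3 lay within their range (0.55, adjusted p = 0.0016 without it). The lower bins were from 150 to 140 and 380 to 370 kb upstream and from 410 to 420 kb downstream (−0.41, −0.83 and −0.43). With dTAG+I-BET against dTAG, the bins from 80 to 90, 90 to 100 (0.43) and 350 to 360 kb (0.58) led the higher ones and 3 upstream bins beyond 300 kb the lower ones (−0.98, −0.99 and −0.61), all with an adjusted p of 0.712.

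**Figure D5:**
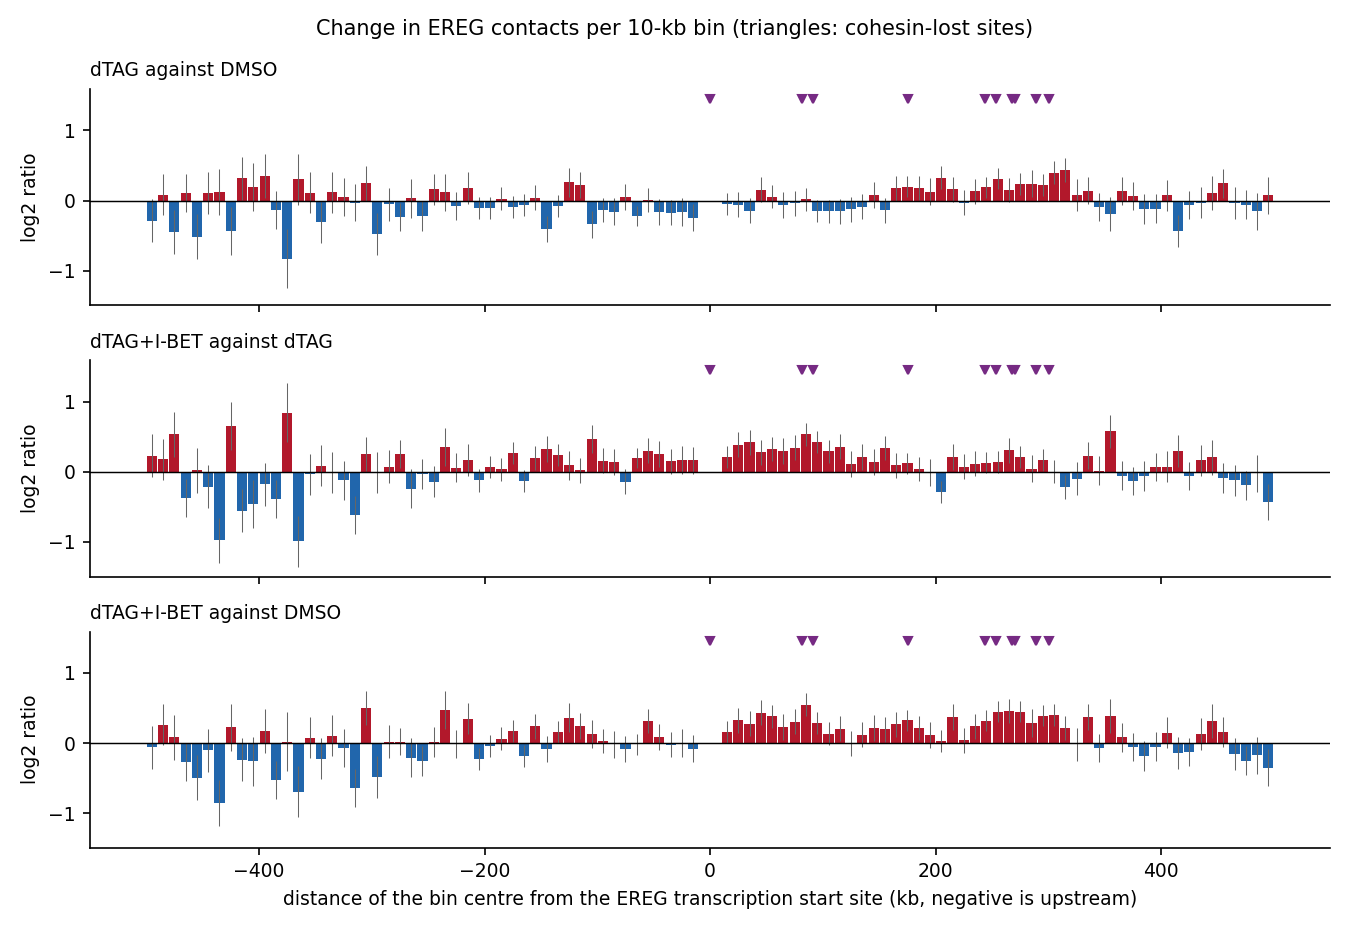
Log2 ratio of signal per kb in each 10-kb bin around EREG against distance from its start site (kb, negative upstream), for the 3 comparisons, with bars of 1 standard error from limma and triangles at cohesin-lost sites. Downstream bins have a median of 0.21 in dTAG+I-BET against DMSO, 0.13 in dTAG+I-BET against dTAG and 0.07 in dTAG against DMSO, and no bin passes an adjusted p of 0.05 in limma.

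Taken by side, ratios with dTAG+I-BET against DMSO were above 0 in 37 of 49 downstream bins (median log2 ratio 0.21) and 23 of 49 upstream bins (−0.02), beside a median of 0.01 over all viewpoints and 52.2% of their bins above 0. With dTAG against DMSO these were 27 of 49 (0.07) and 22 of 49 (−0.06), beside −0.07 and 39.8%, and without dTAG replicate 3 they were 42 of 49 (0.22) and 25 of 49 (0.01), beside 0.05. With dTAG+I-BET against dTAG they were 36 of 49 (0.13) and 30 of 49 (0.07), beside 0.09 and 65.7%, and without dTAG replicate 3 the downstream median was −0.02. In dTAG+I-BET and DMSO, 25 of 98 bins did not overlap with dTAG+I-BET above, against 15.1% of all bins, and 6 did not overlap with it below, against 11.2%.

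The ratio of downstream to upstream signal from 10 to 500 kb, a value within each library, had a log2 of 0.82, 0.88 and 0.87 in dTAG+I-BET, 0.79, 0.88 and 0.74 in dTAG, and 0.58, 0.71 and 0.54 in DMSO. Both treated groups were more lopsided than DMSO in every library. dTAG+I-BET exceeded DMSO by 0.25 and dTAG exceeded DMSO by 0.19 (exact permutation p = 0.1 each), and dTAG+I-BET exceeded dTAG by 0.05 (exact p = 0.3). Without dTAG replicate 3 the difference of dTAG against DMSO was 0.22 (exact p = 0.2).

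Distance bands on the downstream side were compared as well. From 250 to 500 kb downstream, the signal per kb was 488, 486 and 493 in dTAG+I-BET, 522, 524 and 369 in dTAG, and 415, 443 and 382 in DMSO. From 50 to 100 kb downstream it was 1001, 991 and 1019 in dTAG+I-BET, 801, 928 and 600.3 in dTAG, and 761, 843 and 739 in DMSO. In the far band dTAG replicates 1 and 2 exceeded every dTAG+I-BET library, and in the near band no dTAG library did. In limma 0 of the 8 bands were called in any comparison, against 10% with dTAG+I-BET against DMSO, 0% with dTAG+I-BET against dTAG and 5.62% with dTAG against DMSO, and the counts at an unadjusted p under 0.05 were 1, 1 and 0 (23.1%, 8.75% and 16.9% of all bands). With dTAG+I-BET against DMSO, the 4 downstream bands had log2 ratios of 0.20 to 0.36 (adjusted p = 0.143 to 0.386) and the 4 upstream bands −0.13 to 0.09. edgeR called 3 downstream bands higher there and 1 with dTAG against DMSO (16.9% and 11.9% of all bands). Without dTAG replicate 3 limma called 4 and 2 (24.4% and 16.9%). In the first of these comparisons that library is in neither group, so only the estimate of spread changed. Of the other viewpoints, DCBLD2 (Pearson r 0.972) and MTAP (0.972) followed EREG most closely in total log2 signal from 10 to 500 kb over the 9 libraries, which share their depth and preparation.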

How the data were processed

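Contacts of the EREG promoter came from 9 Capture-C libraries of MED14-dTAG HCT-116 cells, which the labels place in 3 groups of 3 (dTAG+I-BET, dTAG and DMSO). The authors cut chromatin with DpnII, mapped reads to hg38 and counted interactions per fragment with CapCruncher, and the deposited signal is this count after the authors' scaling to nearly equal totals; the submitters' processing notes also name bcl2fastq 2.17. The study's software list names Bowtie2 as an aligner without tying it to the Capture-C files. The file held no columns of the authors' own comparisons, and 0 columns were without a sample.

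All values (100%, tolerance 0.01) were whole multiples of the signal of 1 interaction, so that interactions could be recovered; with 18514 to 33315 of them per EREG library, the sparsest promoter window held 7, and intervals cover counting error only. Fragments were assigned by midpoint to 10-kb bins, promoter windows, cohesin-lost windows and clusters, and bands from 10 to 500 kb; 10 kb around the viewpoint was left out. Log2 of signal per kb plus 1 was tested with limma 3.58.1 (R 4.3.3), all 9 libraries in each fit, over the regions of all 20 viewpoints, with Benjamini-Hochberg adjustment and a threshold of 0.05; single values were tested with two-sided exact permutation tests. The named genes were every protein-coding gene from 10 to 500 kb, and the named bins the 3 higher and 3 lower with the lowest p in each comparison and the 5 highest over the other viewpoints. The members, regions and lists were chosen with earlier results of these data known.

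Alternatives were edgeR 4.0.16 on recovered interactions with TMM or DESeq2 1.42.0 size factors, a replicate block, omission of 1 library at a time, equal totals from 10 to 1000 kb in every library, fits of only the 2 groups compared, pseudocounts of 0.5 and 5, bins of 5 and 25 kb, a bin filter of 10 per kb, windows of 2.5 and 10 kb, sites joined over 25 and 100 kb, the spans 50 to 500 and 10 to 250 kb, and the median of the other viewpoints. On recovered interactions, edgeR with TMM called 3, 0 and 7 EREG bins with dTAG against DMSO, dTAG+I-BET against dTAG and dTAG+I-BET against DMSO. The shares of all bins called were 6.22%, 0% and 9.13%. The size factors of edgeR came from the regions tested, so that a change shared by most of them is taken out of its ratios. Tested on simulated data for dTAG against DMSO (1960 bins), the share recovered by limma was 89 of 100 bins at a log2 change of 1 and 33 of 100 at 0.5, with 2 calls among 1760 unchanged bins, and that by edgeR was 89 and 38, with 4 such calls. The simulated bins were drawn independently with a common dispersion and without the shift with distance seen in dTAG replicate 3, so that recovery in the real libraries may differ. Tables, exact tests and plots were made with pandas 2.3.3, scipy 1.17.1, matplotlib 3.10.9 and numpy 2.4.6 under Python 3.11.15.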

Additional observations from a re-analysis of the deposited data

How the results depend on the processing

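For dTAG+I-BET relative to DMSO, the summed cohesin-lost windows of EREG kept a ratio above 0 under every alternative run, but the call was lost with windows of 10 kb on each side (0.37, adjusted p = 0.0645 in limma), and leaving out 1 library gave 0.39 to 0.46. For dTAG relative to DMSO the sum passed with rescaled libraries (0.19) and in edgeR with TMM (0.38) or DESeq2 size factors (0.38), and ranged from 0.13 to 0.32 without 1 library. For dTAG+I-BET relative to dTAG it passed only in edgeR with DESeq2 size factors (0.19, adjusted p = 0.0323). Counts of EREG calls moved as follows. By edgeR with either scaling, with dTAG+I-BET against DMSO there were 7 bins, 6 windows, 3 clusters, 3 bands and 1 promoter window. With TMM, 9.13%, 19.5%, 26.8%, 27.5% and 5.75% of all such regions were called there. With dTAG against DMSO there were 3 bins with TMM and 2 with DESeq2 size factors, 5 windows, 2 clusters and 1 band by edgeR (6.22%, 15.9%, 23.2% and 18.8% with TMM). With dTAG+I-BET against dTAG edgeR called 1 window and 1 cluster (2.65% and 1.79% with TMM). Rescaled libraries gave 1 bin, 3 windows, 2 clusters and 1 band with dTAG+I-BET against DMSO. Of all such regions, 6.94%, 33.6%, 32.1% and 26.9% were called there. With dTAG against DMSO they gave 1 bin, 1 window and 1 cluster (4.29%, 19.5% and 23.2%), and with dTAG+I-BET against dTAG 1 cluster (1.79%). Fits of only the 2 groups compared called more EREG regions with dTAG+I-BET against DMSO. The share over all regions is not given for this setting, so its counts are left out. In that comparison windows of 10 kb on each side left 0 window calls, and joining sites over 25 and 100 kb left 1 and 0 cluster calls. Without 1 library, the calls with dTAG+I-BET against DMSO ranged from 0 to 9 bins, 0 to 6 windows, 0 to 3 clusters and 0 to 4 bands, and those with dTAG against DMSO from 0 to 4 bins, 0 to 3 windows, 0 to 1 clusters and 0 to 2 bands, the highest each time without dTAG replicate 3. Without that library, 10.2%, 33.6%, 32.1% and 33.8% of all such regions were called with dTAG+I-BET against DMSO. With dTAG against DMSO these shares were 4.23%, 15%, 14.3% and 22.5%. With dTAG+I-BET against DMSO, dTAG replicate 3 is in neither group, so that leaving it out did not change the ratios. Whether replicates of the same number belong together is not stated in the labels. Correlations of deviations at EREG were −0.17 to 0.22 over 9 same-number pairs and −0.14 to 0.16 over 18 other pairs. Over the bins of all viewpoints they were −0.06 to 0.23 and −0.23 to 0.16, the highest being that of dTAG and DMSO replicates 3. With the replicate block more EREG bins and windows were called with dTAG+I-BET against DMSO than without it. The share over all regions is not given for the block either, so its counts are left out. The adjusted p of the summed EREG windows with the block was 0.0134 in limma. The cause of these shifts was not tested.

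Directions also turned for values that had not passed the test, given here as log2 ratios. For dTAG set against DMSO, windows of 2.5 kb gave PF4 0.11, CXCL2 0.0062 and EPGN 0.061, windows of 10 kb gave CXCL5 −0.015, CXCL3 0.14 and AREG −0.011, and edgeR gave MTHFD2L 0.015 with TMM and 0.017 with DESeq2 size factors, the AREG cohesin-lost window (starting at 74441515) 0.14 and 0.15 in the same order, the band from 10 to 50 kb downstream 0.059 and 0.052 and that from 50 to 100 kb 0.057 and 0.051. For dTAG+I-BET set against dTAG, windows of 10 kb gave PPBP −0.069, CXCL3 −0.23 and CXCL2 0.083, windows of 2.5 kb gave MTHFD2L 0.052, and rescaled libraries gave CXCL3 −0.099, BTC −0.073, the windows at 249 and 300 kb −0.0030 and −0.0071 and the band from 250 to 500 kb downstream −0.042. In edgeR with TMM and with DESeq2 size factors this comparison gave −0.012 and −0.013 for CXCL3, −0.092 and −0.092 for BTC, −0.0096 and −0.0044 for the band from 100 to 250 kb downstream and −0.071 and −0.066 for that from 250 to 500 kb. For dTAG+I-BET set against DMSO, edgeR gave CXCL1 0.036 with TMM and 0.034 with DESeq2 size factors, and windows of 2.5 kb gave PPBP 0.22, CXCL3 0.032, MTHFD2L 0.017 and BTC 0.084. Leaving out 1 library at a time spanned 0 for the following. Between dTAG and DMSO the ranges were −0.057 to 0.28 at CXCL5, −0.27 to 0.18 at CXCL3, −0.23 to 0.33 at CXCL2, −0.16 to 0.13 at MTHFD2L, −0.27 to 0.0030 at EPGN, −0.11 to 0.19 at AREG, −0.38 to 0.15 at BTC, −0.12 to 0.13 in the AREG cohesin-lost window, and −0.13 to 0.16, −0.17 to 0.14 and −0.024 to 0.23 in the downstream bands from 10 to 50, 50 to 100 and 100 to 250 kb. Between dTAG+I-BET and dTAG they were −0.18 to 0.17 at CXCL3, −0.28 to 0.00017 at MTHFD2L, −0.29 to 0.24 at BTC, −0.045 to 0.32 in the window at 289 kb, and −0.028 to 0.23 and −0.098 to 0.15 in the downstream bands from 100 to 250 and 250 to 500 kb. Between dTAG+I-BET and DMSO they were −0.32 to 0.29 at CXCL1, −0.27 to 0.033 at PPBP, −0.26 to 0.19 at CXCL3 and −0.49 to 0.066 at CXCL2. The cause was not tested. Over all alternatives, 373 summary values and 1205 single values kept their direction and their side of the threshold (counts of calls: stayed within 1.5 times). Of the summary values 43 newly passed it or grew and 22 no longer passed it or shrank, and of the single values 80 newly passed it and 18 no longer did. The chemokine windows, with 7 to 71 interactions per library, limit what could be detected on the upstream side.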
